A study of Arabidopsis thaliana with 10 samples.

Results

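The transcript levels compared here are those of rosettes of 2 Arabidopsis thaliana mutants, vtc1 (4 arrays) and abi4-102 (3 arrays). The comparison runs over 22746 probe sets, of which 13513 carry a single annotated gene and stand for 13356 genes. It sets 7 of the 10 arrays of the series against each other. The labels give vtc1 as vitamin C defective 1 and abi4-102 as aba insensitive 4. The remaining 3 arrays are wild type Col 0, whose levels are given beside the mutants as an orientation. These 3 arrays also enter the estimate of the spread behind the SEs and adjusted p-values. All plants were 42 days old and were grown on compost with 8 h of light per day at 200 µmol m-2 s-1, at 23 °C in the light, 18 °C in the dark and 60% humidity. Whole rosettes were taken. The titles call the samples biological replicates, but the labels used here do not say whether a replicate was 1 plant or a pool, so the p-values reflect how far these arrays spread, which may be technical, and the number of arrays limits the precision.

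VTC1 encodes the enzyme that makes GDP-mannose, from which plants build ascorbate (vitamin C) as well as cell wall polysaccharides and protein glycans. Plants of the vtc1 mutant are known for low ascorbate. ABI4 is a transcription factor of the AP2 family with known roles in abscisic acid and sugar responses and in signalling from plastids to the nucleus. Ascorbate and ABI4 have been placed in a common signalling route, which is the question a side by side comparison of these mutants addresses. No probe set was annotated to VTC1 alone or to ABI4 alone, so the genotype labels were not checked through their transcripts.

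The mutants differed widely but mostly by small amounts. By limma with Benjamini-Hochberg adjustment, 8872 probe sets (39.0%) were called at an adjusted p under 0.05, of which 4054 (17.8%) were higher and 4818 (21.2%) lower in vtc1 than in abi4-102. The median size of a called difference was 0.35 on the log2 scale. In whole rosettes, fewer cells of a type and less RNA per cell cannot be told apart. Among the 13356 genes, 1956 (14.6%) were called higher and 2836 (21.2%) lower, and these shares are the background for the gene groups below. Of the 8838 genes above the control level in either mutant, 21.1% were called higher and 29.8% lower. The control level is the signal of the brightest bacterial control probe set on an array. At 2-fold or more, 82 probe sets (0.361%) were higher and 100 (0.440%) lower. At 2-fold or more, 28 genes (0.210% of all, 0.317% of those above the control level) were higher and 51 (0.382% and 0.577%) were lower. The arrays of the mutants did not overlap for any of these 79 genes, which their selection by size and adjusted p on the same arrays all but fixes. Non-overlapping arrays were found for 38.7% of all genes and 52.1% of those above the control level. Replicates correlated at 0.9976 to 0.9985 within vtc1 and 0.9972 to 0.9979 within abi4-102, and arrays of the different mutants at 0.9890 to 0.9898.

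**Figure D1:**
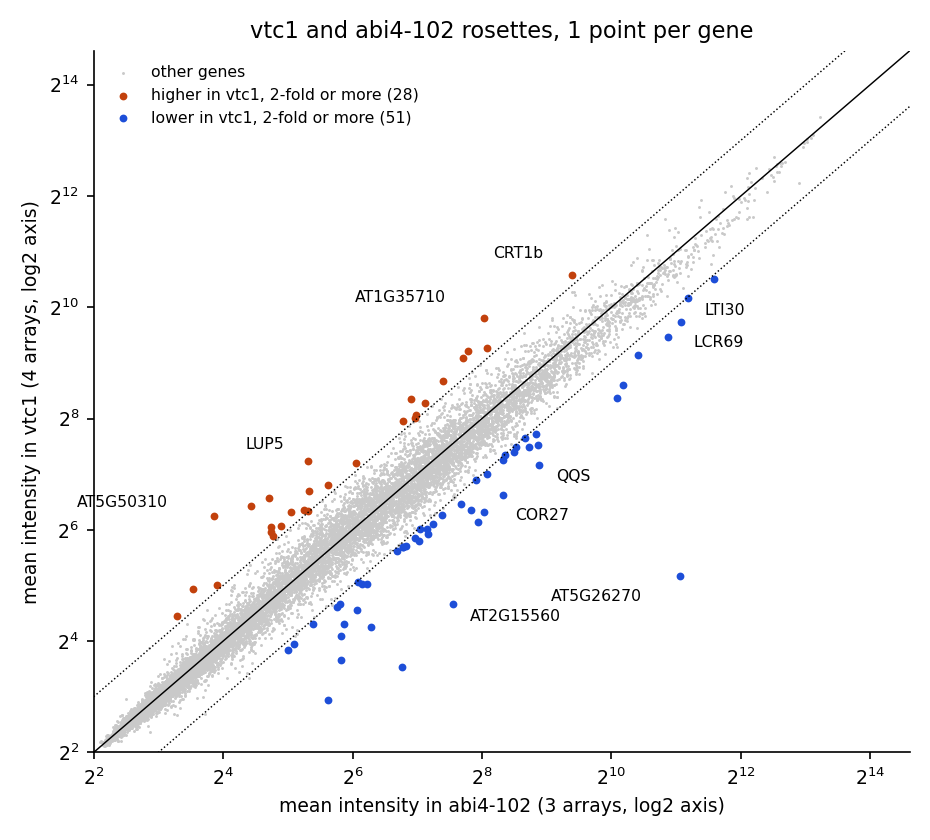
Mean intensity of each of 13356 genes in vtc1 (vertical, 4 arrays) against abi4-102 (horizontal, 3 arrays), both on log2 axes. The solid line marks equal levels and the dotted lines 2-fold differences. The 28 genes called at 2-fold or more above and the 51 below stand out in colour, and AT5G26270 lies farthest from the diagonal.

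The direction of the calls depended on how the arrays were brought to a common scale. With the deposited values 45.7% of the called probe sets were higher in vtc1, with array medians subtracted 37.5%, and with the hybridisation spike-in probe sets as the scale 82.7%. Spike-in scaling moved the median difference of all probe sets to 0.15, against -0.02 as deposited. The spike-in probe sets averaged 8.09 to 8.46 on vtc1 arrays, 8.44 to 8.48 on abi4-102 arrays and 8.47 to 8.6 on wild-type arrays (log2). The spread of these averages among vtc1 arrays enters every probe set on the spike-in scale. A call kept or lost there thus follows mostly the size of the difference, not the spread of the gene itself. Directions of gene groups are given below with these limits in view.

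The difference also followed gene length. The genes were put in 5 length classes of equal size. Of the longest class (3318 bp or more, introns included) 38.3% were called higher in vtc1 and 6.89% lower, whereas of the shortest class (up to 1233 bp) 2.82% were called higher and 24.2% lower. Among genes above the control level, 50.2% of the longest class were called higher and 8.03% lower. For the shortest class these shares were 5.32% and 48.0%. Genes called higher had a median length of 3385 bp, genes called lower 1777 bp and genes not called 2052 bp. Each array showed it by itself. The median deviation of the longest class minus that of the shortest was 0.141 to 0.177 on the 4 vtc1 arrays, -0.236 to -0.217 on the 3 abi4-102 arrays and -0.016 to 0.029 on the wild-type arrays (log2, genes above the control level). The vtc1 and abi4-102 arrays thus lay on opposite sides of wild type. The 3′ minus 5′ signal of the control transcripts, a common reading of RNA integrity, overlapped between the mutants for actin (1.49 to 1.67 in vtc1, 1.36 to 1.56 in abi4-102), GAPDH (0.145 to 0.377 in vtc1, 0.142 to 0.529 in abi4-102) and ubiquitin (0.947 to 1.15 in vtc1, 0.883 to 0.971 in abi4-102). Wild-type arrays gave 1.69 to 2.1 for actin, 0.331 to 0.485 for GAPDH and 1.02 to 1.17 for ubiquitin. For this actin probe pair all arrays of both mutants thus lay below those of wild type. Another actin probe pair overlapped among the genotypes, at 1.90 to 2.11 in vtc1, 1.87 to 2.03 in abi4-102 and 1.88 to 2.22 in wild type. The part of RNA integrity in the length trend was not tested. The part of gene length in the gene group results was not tested either. The groups it touches are also given after a trend over gene length and intensity was subtracted from every array. This setting was chosen after seeing the data, uses 13286 genes and leaves 3780 called, 48.0% of them higher in vtc1. It is named the length trend below, but it takes out intensity too, and their parts were not separated. In the brightest of 5 intensity classes 20.5% of genes were called higher and 42.3% lower, in the dimmest 1.1% and 3.1%.

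**Figure D2:**
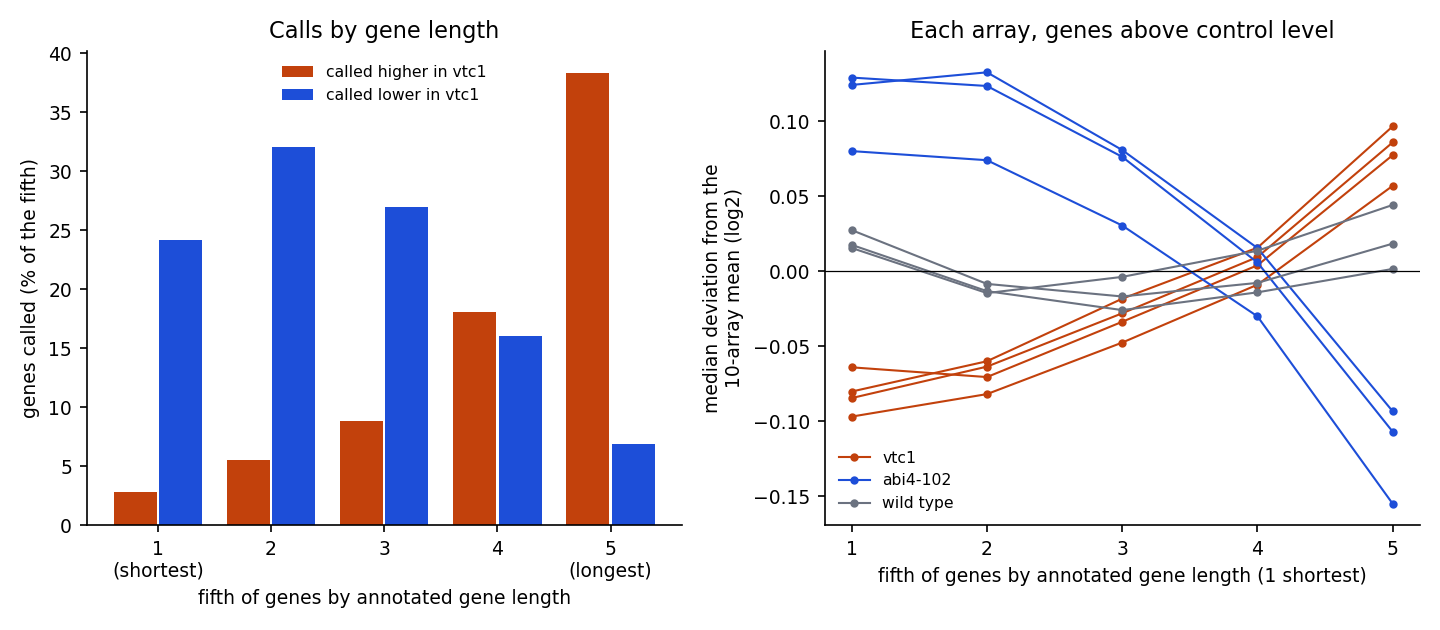
Left, share of genes called higher or lower in vtc1 than in abi4-102 in each of 5 classes of genes by annotated length. Right, median log2 deviation from the 10-array mean per length class, 1 line per array. The share called higher climbed to 38.3% in the longest class, and the lines of vtc1 and abi4-102 cross.

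Most measured genes of protein folding in the endoplasmic reticulum were higher in vtc1. Secreted and membrane proteins fold in the endoplasmic reticulum with the help of chaperones, and bZIP transcription factors tethered to its membrane switch on chaperone genes when folding is overloaded. Of 8 measured genes of endoplasmic reticulum folding, its bZIP regulators included, 7 were called higher in vtc1 and none lower. Their median difference was 0.43 on the log2 scale, against -0.03 over all genes. The count was 7 with spike-in scaling and 7 after the length trend was subtracted. These counts are descriptions of the list, beside the background shares above.

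CRT1b, a calreticulin that holds newly made glycoproteins for folding, had 1569, 1571, 1540 and 1467 units of intensity in vtc1, against 675, 660 and 680 in abi4-102, and 697 ± 15.7 in wild type (SD, n = 3). The vtc1 arrays were all above the abi4-102 arrays, which lay near wild type. The difference was 1.19 ± 0.06 (log2, SE), or 2.29-fold, with an adjusted p of 3.7e-10 by limma. ATERDJ3B, a co-chaperone of the endoplasmic reticulum lumen, had 1234, 1270, 1254 and 1186 in vtc1, against 703, 679 and 672 in abi4-102 and 454 ± 13.9 in wild type. It was 1.80-fold higher in vtc1 (adjusted p = 1.8e-08), and abi4-102 lay between vtc1 and wild type. The stress sensors BZIP17 (0.53 ± 0.07) and BZIP28 (0.44 ± 0.06) rose by smaller amounts, as did the membrane co-chaperones ATERDJ2B (0.42 ± 0.08) and ATERDJ2A (0.38 ± 0.08). BZIP60, the transcription factor spliced by the IRE1 sensor, differed by 0.17 ± 0.06 (adjusted p = 0.040), with 763 ± 31.1 in vtc1 (n = 4), 677 ± 29.6 in abi4-102 (n = 3) and 357 ± 20.9 in wild type (SD). PDIL5-1, a protein disulfide isomerase-like protein, was not called (-0.10, adjusted p = 0.30).

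Vesicle traffic carries the folded proteins onward. Of 27 measured genes, 11 were called higher, 3 lower and 13 were not called, with a median of 0.14 that stayed positive in every scaling tried. AT3G63460, listed as SEC31B, a coat protein of vesicles that leave the endoplasmic reticulum, had 192, 194, 192 and 187 in vtc1, against 114, 97.2 and 107 in abi4-102 (0.85 ± 0.06, adjusted p = 6.2e-08). The exocyst tethers secretory vesicles to the plasma membrane, and all 6 of its measured subunits named SEC were called higher. They ranged from 0.27 for SEC5B to 0.82 for SEC6, and SEC10, SEC15A, SEC15B and SEC5A lay between. These subunits come from long genes (median 6346 bp), and 3 of the 6 were called after the length trend was subtracted. KEU, a protein of membrane fusion during cell division, was 0.66 ± 0.08 higher. The 3 lower members sort proteins at endosomes: VPS2.2 (-0.25), VPS46.2 (-0.19) and the RAB GTPase ARA6 (-0.15), with no call for any of them on the spike-in scale. ARA6 was at 0.02 there and VPS46.2 at 0.06 after the length trend was subtracted.

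Glutamate receptor-like genes encode cation channels known for wound and defence signalling. Of 8 measured, 6 were called higher in vtc1 and none lower, with a median of 0.44, and 6 were called after the length trend was subtracted. Their genes are long (median 3842 bp), and 50.2% of genes above the control level in that length class were called higher. GLR1.4 had 145, 132, 144 and 147 in vtc1, against 93.3, 69.1 and 70.9 in abi4-102 and 61.4 ± 6.69 in wild type. GLR2.7 had 239, 245, 218 and 224 in vtc1, against 126, 142 and 129 in abi4-102 and 102 ± 0.90 in wild type. GLR2.8 had 53.0, 53.4, 52.3 and 48.6 in vtc1, against 29.6, 30.0 and 27.1 in abi4-102. Each was 1.75- to 1.83-fold higher in vtc1 without overlap, with adjusted p of 1.2e-07 to 3.3e-06, and the mean of abi4-102 lay above that of wild type in all of them. GLR3.3, a channel of long-distance wound signals, differed by 0.46 ± 0.08. GLR2.7 and GLR2.8 belong to 1 subfamily, whose members can share signal.

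**Figure D3:**
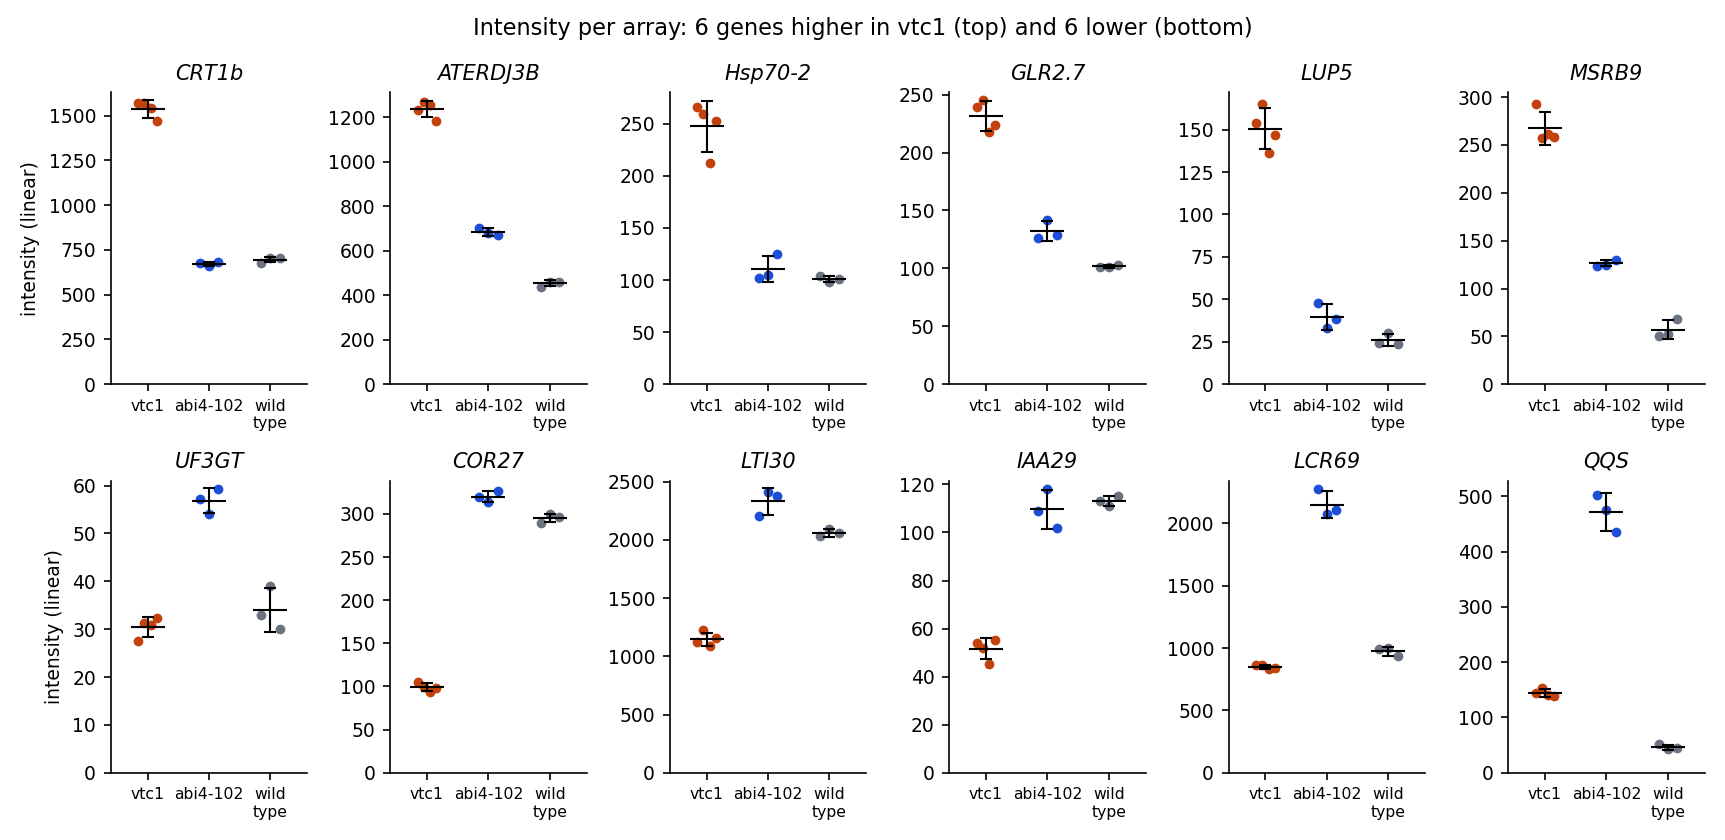
Intensity on each array for 6 genes higher in vtc1 (top row) and 6 lower (bottom row), with the mean and SD as black bars, for vtc1 (4 arrays), abi4-102 (3 arrays) and wild type (3 arrays), on linear axes that start at 0. CRT1b and Hsp70-2 in abi4-102 lie near wild type, and QQS is high in both mutants.

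Single heat shock and defence genes were higher as well. Of 5 measured heat shock genes, 2 were called higher and none lower. Hsp70-2, a cytosolic chaperone, had 266, 259, 212 and 253 in vtc1, against 102, 105 and 125 in abi4-102 and 101 ± 2.59 in wild type, a 2.23-fold difference (adjusted p = 4.9e-08). AT5G48570, listed as ROF2, an immunophilin of heat acclimation, had 30.5 ± 5.48 in vtc1, while abi4-102 at 11.6 ± 0.89 was not above the control level, so it was at least 1.62-fold higher. Of 5 salicylic acid genes, 2 were called higher and none lower. SAG101, a partner of the immune regulator EDS1, was 1.64-fold higher (98.6, 128, 94.8 and 112 in vtc1, against 70.2, 60.7 and 64.6 in abi4-102). BSMT1, which methylates salicylic acid, was called too (0.29 ± 0.06), at levels below the control level in both mutants. WRKY53 (0.15, adjusted p = 0.097) and GRX480 (0.01, adjusted p = 0.93) were not called. Of 4 defence receptor and signalling genes, EFR, the receptor for a bacterial elongation factor, was called higher (0.28 ± 0.06), but not after the length trend was subtracted, and the list median was -0.10. SGT1A, a co-chaperone of immune receptors picked from the largest differences, was 1.90-fold higher, with 380 ± 26.3 in vtc1, 199 ± 12.6 in abi4-102 and 224 ± 18.0 in wild type.

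Among the 28 genes with the largest increase, AT5G50310 had 72.8, 81.1, 71.4 and 80.6 in vtc1 and 18.1, 10.3 and 15.2 in abi4-102, a difference of at least 4.03-fold. Wild type, at 71.8 ± 5.56, matched vtc1, so abi4-102 was the genotype that stood apart. AT2G40960 was low in abi4-102 as well, with 86.0 ± 3.56 in vtc1, 21.7 ± 2.1 in abi4-102 and 111 ± 7.67 in wild type. LUP5, a member of the oxidosqualene cyclase family that makes triterpenes, had 154, 165, 136 and 147 in vtc1, against 47.7, 33.0 and 38.2 in abi4-102 and 26.1 ± 3.50 in wild type, a 3.77-fold difference with vtc1 apart. AT1G35710 (894 ± 36.9 in vtc1, 262 ± 44.0 in abi4-102, 173 ± 2.77 in wild type), AT3G28510 (94.8 ± 14.7 in vtc1, 26.2 ± 1.36 in abi4-102, 25.9 ± 5.86 in wild type) and cwINV6, named as a cell wall invertase (104 ± 8.76 in vtc1, 39.9 ± 3.97 in abi4-102, 38.9 ± 3.06 in wild type), were likewise high in vtc1. AT3G28510 and AT3G28540, both among the 15 largest increases, lie close together in locus order. Beside AT5G48570, the other members of that group of 15 were AT4G16660, AT1G68600, AT1G30250, AT4G00700, AT4G16870, AT1G26390 and AT1G74360, at 2.29- to 2.69-fold.

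MSRB9 and MSRB5 moved in opposite directions. Both belong to the methionine sulfoxide reductases of type B, which repair oxidised methionine in proteins. MSRB9 had 293, 257, 261 and 258 in vtc1, against 124, 125 and 130 in abi4-102 and 57.1 ± 9.85 in wild type (2.1-fold higher, adjusted p = 1.8e-07). MSRB5 had 205, 223, 220 and 197 in vtc1, against 479, 463 and 434 in abi4-102 and 497 ± 24.5 in wild type (2.16-fold lower, adjusted p = 4.4e-09). For MSRB9 both mutants lay above wild type, while for MSRB5 abi4-102 was near wild type. GFAT, the entry enzyme to amino sugars for glycans, was 1.86-fold higher in vtc1 (140 ± 7.82, against 74.5 ± 2.59 in abi4-102), and SAL2, of the family that dephosphorylates inositol phosphates and PAP, 1.91-fold higher (272 ± 13.6, against 142 ± 10.3). These genes were picked from the largest differences among genes with a symbol, after their values were seen.

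Of the 4 measured genes of ascorbate synthesis none was called. GME, which makes GDP-galactose from GDP-mannose, had 627 ± 6.76 in vtc1 and 626 ± 22.3 in abi4-102, and its difference was 0.00 with a SE of 0.057. GLDH, the last enzyme of the route, differed by 0.01 ± 0.07, VTC4 by -0.03 ± 0.07 and PMM by 0.15 ± 0.07 (adjusted p = 0.13). VTC4 lay at 619 ± 32.9 in vtc1 and 633 ± 69.2 in abi4-102, against 904 ± 20.1 in wild type. Of 10 genes of ascorbate recycling and related antioxidant enzymes, 3 were called lower and none higher. The 30% called lower is near the 29.8% of all genes above the control level. TAPX, the ascorbate peroxidase of thylakoids, had 419, 431, 407 and 417 in vtc1, against 576, 525 and 510 in abi4-102 (-0.36 ± 0.07, adjusted p = 0.00037). CCS, the copper chaperone of superoxide dismutase, differed by -0.22 and TRXF2, a chloroplast thioredoxin, by -0.20. With spike-in scaling none of these 3 was called and the median of the list turned to 0.05, against -0.12 as deposited.

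Flavonoid and anthocyanin genes were lower in vtc1 than in abi4-102. All 6 measured genes of the list were called lower, with a median of -0.67, and with spike-in scaling 4 were, with a median of -0.50. DFR, the reductase at the start of the anthocyanin branch, had 11.3, 9.92, 11.6 and 10.2 in vtc1, which is not above the control level, against 25.9, 19.9 and 16 in abi4-102, and so was at least 1.25-fold lower. UF3GT, a glycosyltransferase of anthocyanins, had 27.5, 31.3, 30.8 and 32.3 in vtc1, against 57.3, 54.0 and 59.2 in abi4-102 and 34 ± 4.52 in wild type (1.84-fold lower, adjusted p = 5.8e-07). AT4G14090, a listed member given by its locus code, was 2.87-fold lower, with 19.9 ± 2.27 in vtc1, 58.6 ± 3.18 in abi4-102 and 20.1 ± 0.77 in wild type. In these 3 genes the arrays of vtc1 overlapped those of wild type, and all abi4-102 arrays were higher. UGT78D2 and UGT78D1, which add sugars to flavonols, fell by 0.49 and by 0.30, and AT5MAT, which adds malonyl groups to anthocyanins, by 0.30, below the control level in both mutants and with overlapping arrays. The gene with the symbol CHI in this annotation is a chitinase and was left out of the list. It was higher in vtc1 by 0.21 on the log2 scale.

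Cold and dehydration genes split. Dehydrins and related late embryogenesis abundant proteins protect membranes and enzymes when water is withdrawn. Of 10 measured, 5 were called lower and 2 higher, with a median of -0.15 that turned to 0.02 with spike-in scaling. LTI30, a dehydrin, had 1120, 1222, 1092 and 1154 in vtc1, against 2202, 2411 and 2378 in abi4-102 and 2062 ± 32.8 in wild type (2.03-fold lower, adjusted p = 5e-09). COR47 had 1751 ± 22.7 in vtc1, against 3111, 2919 and 2883 in abi4-102 and 3599 ± 21.7 in wild type (1.70-fold lower). COR15A (-0.66 ± 0.06) and COR15B (-0.51 ± 0.07), which protect chloroplast membranes, were lower as well. All 4 kept their calls with spike-in scaling and after the length trend was subtracted. The higher members, AT2G44060 (0.26) and AT2G46140 (0.23), are annotated as late embryogenesis abundant proteins. COR27, a cold-regulated gene that also acts in the clock, had 105, 98.9, 93.5 and 98.6 in vtc1, against 319, 314 and 327 in abi4-102 and 295 ± 5.10 in wild type, a 3.21-fold difference (adjusted p = 1.7e-11). For COR27 and these 4 genes vtc1 was the low genotype. GI, another clock gene, was 0.33 ± 0.06 higher as deposited and 0.02 after the length trend was subtracted, and FIO1 was not called (-0.06).

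Several defence-related genes were lower in vtc1, chosen from the largest decreases or the jasmonate list and not counted as a group. PDF1.2, the defensin used as a marker of jasmonate and ethylene, had 126, 131, 107 and 115 in vtc1, against 248, 236 and 235 in abi4-102 and 109 ± 17.5 in wild type (2.0-fold lower, adjusted p = 7e-07). PDF1.2b (207 ± 9.73 in vtc1, 316 ± 18.8 in abi4-102, 165 ± 14.2 in wild type) and PDF1.4 (52.3 ± 6.15 in vtc1, 113 ± 5.28 in abi4-102, 39.4 ± 5.33 in wild type) followed the same order of genotypes, though close copies such as PDF1.2 and PDF1.2b can share signal. LCR69, a small cysteine-rich protein, had 865, 863, 832 and 836 in vtc1, against 2271, 2074 and 2106 in abi4-102 and 976 ± 35.9 in wild type (2.53-fold lower). THI2.2, a thionin (1.88-fold), OSM34, an osmotin (1.99-fold), ChiC, a chitinase (1.85-fold), and PR-1-LIKE (at least 1.91-fold) were lower too. In these genes abi4-102 exceeded wild type. Of the 7 measured jasmonate genes 4 were called lower and 2 higher. The higher ones were OPCL1, an enzyme of jasmonate synthesis (0.45 ± 0.07), and MYC4, a transcription factor of its response (0.40 ± 0.10), while THI2.1 (-0.30) and JMT, which methylates jasmonate (-0.26), were among the lower ones and were not called with spike-in scaling.

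**Figure D4:**
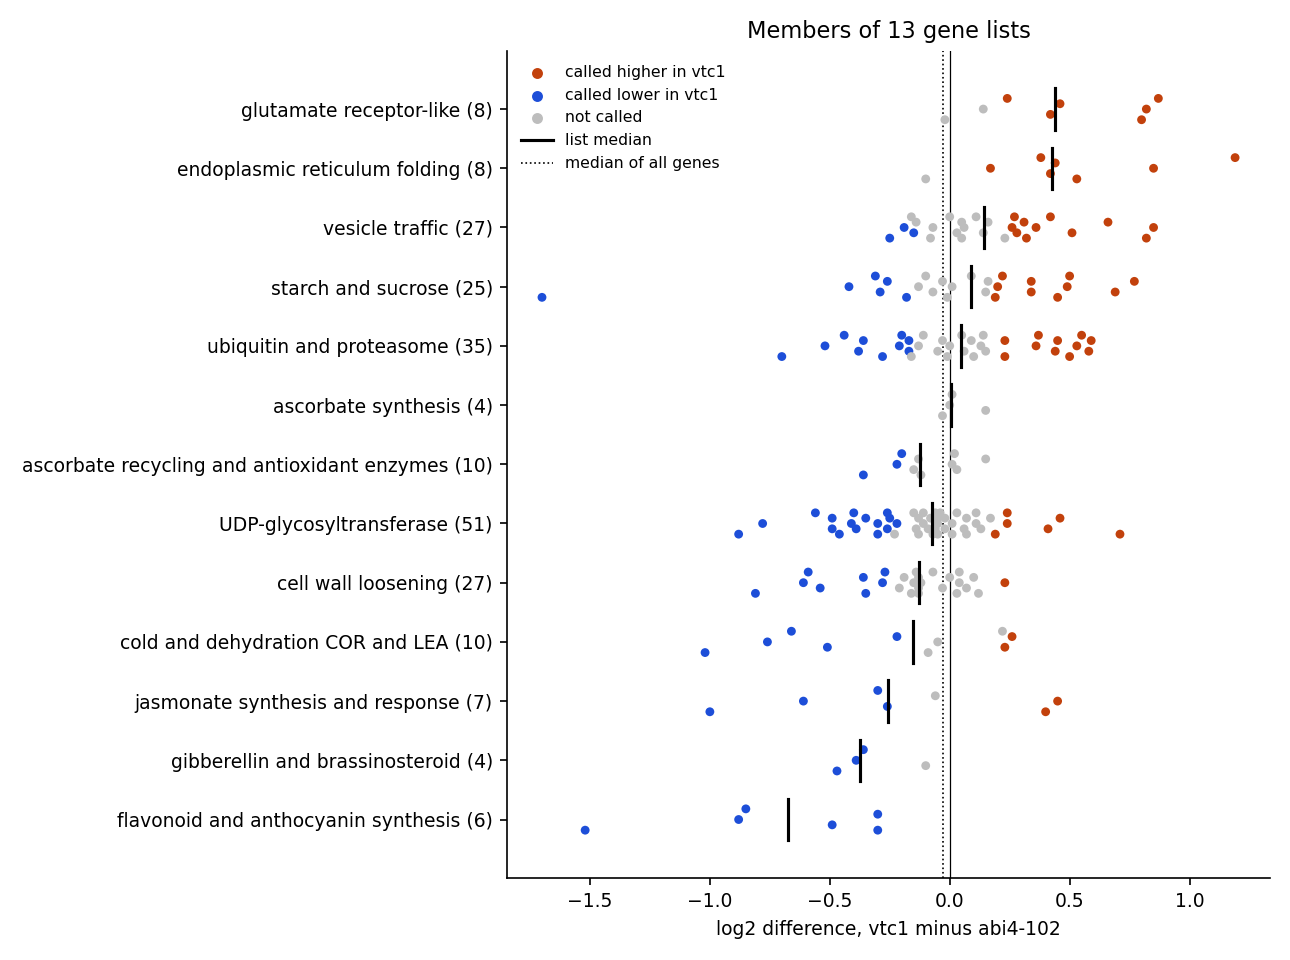
Log2 difference, vtc1 minus abi4-102, of each measured member of 13 gene lists, 1 point per gene, with the list median (bar) and the median of all genes (dotted line). The 7 called endoplasmic reticulum genes lie right of 0, and all 6 flavonoid genes left of it.

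Growth hormone genes differed in single members. IAA29, an auxin response repressor, had 54.0, 51.8, 45.3 and 55.3 in vtc1, against 109, 118 and 102 in abi4-102 and 113 ± 2.03 in wild type (2.11-fold lower, adjusted p = 2.2e-08). GH3.3, which conjugates auxin to amino acids, had 37.1, 39.2, 33.3 and 37.4 in vtc1, against 22.8, 20.4 and 18.8 in abi4-102 (1.74-fold higher). Of the 17 measured auxin genes 2 were called higher (11.8%) and 4 lower (23.5%), near the 14.6% and 21.2% of all genes. The control level was exceeded by 7 of the 17, and with spike-in scaling 2 were called higher and 1 lower. WES1, also of the GH3 family, differed by 0.20, HAT2 by -0.21 and IAA18 by -0.18. Of 4 gibberellin genes 3 were called lower, namely the receptors GID1C (-0.47 ± 0.09) and GID1A (-0.36 ± 0.08) and SLY1, the F-box protein that removes the DELLA repressors (-0.39 ± 0.06), and 1 of them, GID1C, was called with spike-in scaling. RR16 (-0.46) and ARR15 (-0.44), cytokinin response regulators, were lower, the only calls among 6 cytokinin genes.

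Cell wall loosening genes, expansins and xyloglucan endotransglucosylases, had 8 of 27 members called lower (29.6%) and 1 higher, against 21.2% lower among all genes and 29.8% among those above the control level. Their median of -0.13 turned to 0.04 with spike-in scaling, and 4 lower calls were left. EXLA1 had 46.5, 44.6, 46.4 and 50.3 in vtc1, against 78.4, 77.9 and 93.6 in abi4-102 and 43.7 ± 3.07 in wild type (1.75-fold lower, adjusted p = 6e-07). EXPA16 fell by 0.61 and EXGT-A3 by 0.59, and XTH33 was the higher member (0.23). STOMAGEN, a peptide that raises stomatal density, had 67.9, 59.7, 62.1 and 61.5 in vtc1, against 117, 110 and 109 in abi4-102 and 153 ± 7.0 in wild type (1.77-fold lower). Both mutants lay below wild type there, vtc1 more so.

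Of 25 measured genes of starch and sucrose 10 were called higher and 6 lower, with a median of 0.09, and with spike-in scaling 12 were higher and 1 lower, with a median of 0.26. ATSPS4F, a sucrose phosphate synthase, had 180, 147, 166 and 151 in vtc1, against 85.5, 105 and 92.2 in abi4-102 and 164 ± 3.79 in wild type (1.70-fold higher). APL3, a large subunit of the enzyme that starts starch synthesis, was 1.61-fold higher (241 ± 12.8 in vtc1, 149 ± 8.18 in abi4-102, 136 ± 18.4 in wild type), and it has been used as a sugar-responsive gene. SAG29, a sucrose transporter linked to senescence, differed by 0.49 ± 0.08 and AMY1, an alpha-amylase, by 0.34 ± 0.07. QQS, an orphan gene that lowers leaf starch, had 145, 154, 140 and 138 in vtc1, against 503, 476 and 436 in abi4-102 and 46 ± 4.81 in wild type. It was 3.25-fold lower in vtc1 (adjusted p = 2e-10), and both mutants exceeded wild type. SWEET2, a sugar carrier of the vacuole membrane, fell by 0.42.

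Protein turnover genes differed by family in the direction of their calls and in gene length. Of 12 ubiquitin-specific proteases, which take ubiquitin off proteins, 7 were called higher and none lower, with a median of 0.41. UBP26 (0.59 ± 0.08), UBP15 (0.58 ± 0.08) and UBP23 (0.55 ± 0.10) led, and 7 were called after the length trend was subtracted. Of 12 ubiquitin-conjugating enzymes 1 was called higher and 6 lower, with a median of -0.17 that was 0.01 with spike-in scaling and -0.02 after the length trend was subtracted. The protease and conjugating enzyme genes had median lengths of 3950 bp and 1872 bp. In the length class of the protease median, 38.3% of all genes and 50.2% of those above the control level were called higher. In that of the conjugating enzymes 27.0% and 35.1% were called lower. Of 9 U-box ligases 3 were called higher, led by PUB43 (0.44 ± 0.07), and 3 lower, among them PUB25 (at least 1.21-fold) and PUB19 (1.43-fold). The families were split after their values were seen.

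Families of enzymes that conjugate or modify small molecules had calls in both directions. Of 51 UDP-glycosyltransferases 16 were called lower (31.4%, near the 29.8% of all genes above the control level) and 6 higher, and with spike-in scaling 6 were lower and 10 higher. UGT87A2 led the higher ones (538 ± 47.5 in vtc1, 328 ± 31.0 in abi4-102, 1.64-fold) and UGT73B1 was at least 1.34-fold lower. Of 14 glutathione transferases 5 were called lower (35.7%, against 21.2% of all genes and 29.8% of those above the control level) and none higher. GSTU26 (at least 1.36-fold) and GSTU16 (-0.46 ± 0.07) led the lower ones. With spike-in scaling 2 were lower and 1 higher, and after the length trend was subtracted 4 were lower and 2 higher. Of 22 beta-glucosidases 5 were called higher and 1 lower, and after the length trend was subtracted 4 higher and 3 lower. BGLU31 (at least 1.17-fold), BGLU25 (893 ± 50.0 in vtc1, 539 ± 4.69 in abi4-102, 1.65-fold) and BGLU40 (1.47-fold) led. Of the 18 genes of the cytochrome P450 family CYP71B 4 were higher and 2 lower, and CYP71B23 was 1.65-fold higher.

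Transcription factors of the bZIP family were called as often higher (5 of 23) as lower (5 of 23) as deposited, and with spike-in scaling 9 were higher and 2 lower. BZIP53, which acts in amino acid metabolism and seed maturation, had 332, 332, 346 and 335 in vtc1, against 634, 578 and 511 in abi4-102 and 327 ± 11.7 in wild type (1.70-fold lower, adjusted p = 4.9e-07). BZIP61 was 1.68-fold lower in the same pattern (26.9 ± 1.16 in vtc1, 45.9 ± 2.99 in abi4-102, 24.6 ± 0.54 in wild type). Of 7 measured WRKY factors 3 were higher and 2 lower, and with spike-in scaling 4 higher and none lower, with ZAP1 at 0.40 and WRKY6 at -0.22. Among 8 measured calcium sensors and kinases 2 were called higher and 2 lower (25% each way). The calmodulin-like CML41 (-0.64 ± 0.09) and CML38 (-0.62 ± 0.08) were lower in vtc1. HTB1 (-0.54) and HTB2 (-0.45), histones H2B, were lower too.

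Most genes encoded in the plastid were lower in vtc1 on the deposited scale. The plastid genome holds core subunits of the photosystems, of the NDH complex of electron transport and of its own ribosomes and polymerase. Of 69 measured, 50 were called lower and none higher, with a median of -0.32, and 22 were called lower with spike-in scaling (median -0.15). The calls were 23 of 35 for photosynthesis, 7 of 10 for the NDH complex, and 16 of 19 for ribosome and polymerase. The annotated plastid genes are short (median 555 bp). In the shortest length class 48.0% of genes above the control level were called lower. After the trend over gene length and intensity was subtracted 17 plastid genes were lower and 9 higher, with a median of -0.07. The plastid count thus depended on both settings. atpI, a subunit of ATP synthase, had 98.4, 103, 100 and 100 in vtc1, against 176, 196 and 195 in abi4-102 and a mean of 173 in wild type (-0.90 ± 0.07, adjusted p = 6.8e-08). psbB, a core antenna protein of photosystem II, had 311, 305, 312 and 312 in vtc1, against 488, 498 and 544 in abi4-102 (-0.71 ± 0.06). rps18, a ribosomal protein, differed by -0.76 ± 0.10 and ndhE by -0.71 ± 0.11. All 4 were still called lower after the length trend was subtracted. Of 16 mitochondria-encoded genes 4 were called lower (25%), near the 21.2% of all genes and 29.8% of those above the control level. Among those above the control level orfX (-0.50) and nad4 (-0.45 ± 0.07) led.

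**Figure D5:**
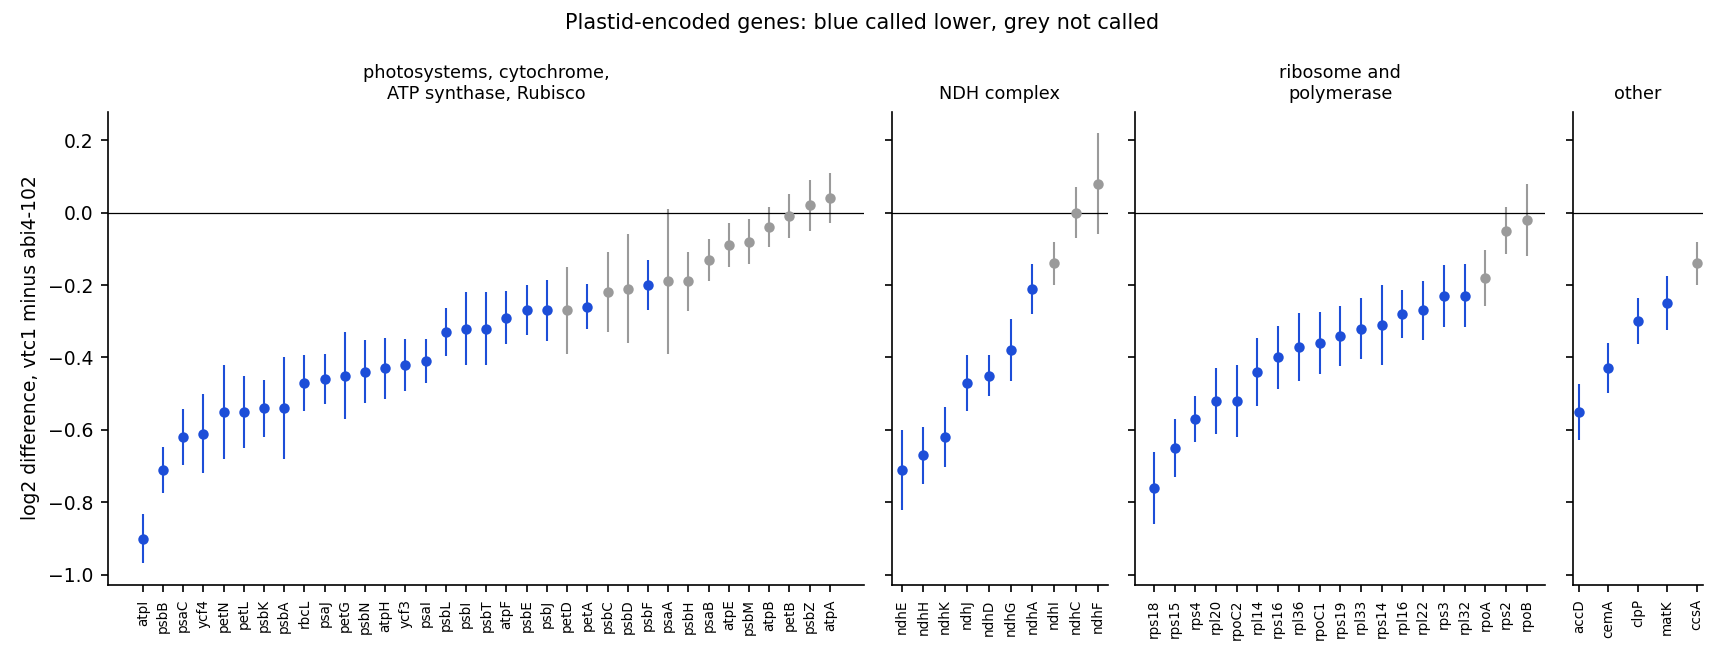
Log2 difference, vtc1 minus abi4-102, with its SE for each of 69 plastid-encoded genes, by the complex they belong to. Of these, 50 are called lower (blue), and atpI lies lowest at -0.90.

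Of 10 measured nuclear genes of light harvesting and photosystems 2 were called lower and none higher, with a median of -0.03. After the length trend was subtracted 5 were higher and 1 lower, with a median of 0.16. CYTC6A, a cytochrome of the thylakoid lumen, had 48.6 ± 3.36 in vtc1 and 81.8 ± 7.37 in abi4-102, both far below the 371 ± 25.4 of wild type (-0.74 ± 0.08, adjusted p = 1.6e-06). In the Calvin cycle, which fixes carbon dioxide, PRK (0.46 ± 0.07) and RCA (0.20 ± 0.05) were higher and SBPASE lower (-0.23 ± 0.07), though RCA was not called after the length trend was subtracted and SBPASE not with spike-in scaling. Of 10 genes of chlorophyll and carotenoid synthesis 5 were called lower and 1 higher, and with spike-in scaling 1 lower and 2 higher. CHLI2, a subunit of magnesium chelatase in chlorophyll synthesis, was 1.57-fold lower (290 ± 16.3 in vtc1, 457 ± 26.6 in abi4-102) and PORB, a later enzyme, 1.24-fold higher.

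The largest decreases included genes that were high in abi4-102 alone. AT5G26270 had 31.2, 36.1, 41.5 and 34.6 in vtc1, against 1602, 1679 and 3149 in abi4-102 and 37.1 ± 1.87 in wild type. It was 55.6-fold lower in vtc1 (-5.80 ± 0.17, adjusted p = 2.6e-12), with vtc1 at the level of wild type and a wide spread among the abi4-102 arrays. AT5G03090 (at least 6.34-fold), AT4G03530, a pseudogene (at least 2.91-fold), AT5G26020 (at least 3.34-fold) and AT2G20460 (3.73-fold) had the same pattern, at or near wild type in vtc1 and higher in abi4-102. AT2G15560 had the other pattern, with 26.9, 24.2, 25.2 and 25.4 in vtc1, against 175, 204 and 186 in abi4-102 and 224 ± 27.5 in wild type (7.15-fold lower). AT2G43550 (331 ± 22.1 in vtc1, 1092 ± 65.9 in abi4-102, 1157 ± 36.0 in wild type), AT3G28310 (3.19-fold) and AT5G62360 (2.96-fold) were also low in vtc1 alone. AT5G19120, AT3G07350 and AT2G20670 completed the 15 largest decreases, at 2.78- to 3.43-fold. Every gene named among the 15 largest in either direction kept its direction and its call in all settings tried, including the spike-in scale and the subtraction of the length trend. Their selection as the largest called differences on the same arrays all but fixes this.

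Markers of other cell types were called lower in vtc1 for guard cells and phloem in 1 gene each. Of 4 guard cell markers, FMA (-0.06), SPCH (-0.01) and MUTE (0.00) were not called and AT1G22690 was lower (-1.06 ± 0.07), with 128 ± 6.88 in vtc1, against 269 ± 23.5 in abi4-102 and 170 ± 7.81 in wild type, while SPCH and MUTE lay below the control level in both mutants. The 1 measured phloem marker, AT5G18600, had 969, 931, 906 and 885 in vtc1, against 1386, 1479 and 1515 in abi4-102 and 1069 ± 20.1 in wild type (-0.66 ± 0.06, adjusted p = 4.1e-07), and it was called lower in every setting tried. The 3 root markers EXPA7, PYK10 and EXPA18 were not called (0.03 to 0.07), with PYK10 below the control level in both mutants. The part of cell type make-up in the differences was not tested.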

How the data were processed

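Rosette RNA was hybridised to single-colour arrays, per the labels' protocols. The authors' deposited table holds linear intensity per probe set, and the sources used here do not give its summarisation or scaling. Control probe sets were left out, and values were taken as log2(value + 1), on which all folds are given and which understates dim genes. All 10 arrays entered 1 model with genotype as factor (limma 3.58.1, R 4.3.3, two-sided), tested on simulated data, with Benjamini-Hochberg adjustment over 22746 probe sets and calls at 0.05. A probe set under the brightest of 27 bacterial control probe sets on every array of a group is below the control level there, and its difference is given as at least N-fold.

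Gene names and lengths came from the platform annotation, updated through a RefSeq gene table (13436 of 13513 probe sets matched). The probe set with the highest mean stood for a gene, and a locus code carries no role. Named genes are the 15 largest called differences each way without overlap and up to 3 called members each way per list. Other named genes were chosen after their values were seen. The members and lists were chosen with earlier results of these data known. Listed symbols that belong to another gene, such as CHI, were removed. Promoter sequences were not used here. Alternatives were other scalings, pseudocounts and filters, a variance trend, a replicate block and each array left out.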

Additional observations from a re-analysis of the deposited data

Results flagged for a closer look

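In 4 of 173 genes tested for it, 1 vtc1 array stood apart from the other 3 by the gap test for small groups (Dixon, 95%), which chance alone meets in about 1 of 20 groups. BZIP28 had 207.0 on vtc1 replicate 2, against 224, 227 and 225 on the others. SEC6 had 170 on replicate 3, against 210, 208 and 208. MSRB9 had 293 on replicate 1, against 257, 261 and 258. psbB had 305 on replicate 2, against 311, 312 and 312. In each of them all vtc1 arrays still lay on one side of all abi4-102 arrays. The 3 abi4-102 arrays are too few for this test.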

How the results depend on the processing

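The count of called probe sets was 8872, and it was 7441 to 9401 under the other scalings, pseudocount, filter and variance trend, and 7971 with the replicate number as a replicate block. Leaving out 1 array gave 7800 to 8388 called, 82 to 96 higher and 93 to 114 lower at 2-fold or more, and 43.01% to 48.1% of calls higher. The labels do not say whether the replicate numbers pair the samples. Deviations of same-numbered vtc1 and abi4-102 arrays correlated at -0.03, -0.05 and -0.02, which cannot show whether such samples were handled together. At 2-fold or more, 82 probe sets were higher and 100 lower. Spike-in scaling gave 191 and 48, with 82.7% of calls higher, and a pseudocount of 16, which shrinks dim genes by construction, 51 and 50. With 1 probe set per gene the counts were 4695 called, 28 higher and 51 lower, fewer because fewer features were tested, and with the trend over gene length and intensity also subtracted, a setting added after seeing the data, 3780, 37 and 29. Of 173 genes followed through all settings, 21 lost their call and 2 gained one with spike-in scaling, 16 lost and 3 gained one with the length trend subtracted (171 genes), and at most 12 lost one when any 1 array was left out. The sign changed for ARA6 (0.02 with spike-in scaling) and for VPS46.2 (0.06 with the length trend subtracted). The cause of these changes was not tested.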
